A study of Mus musculus with 18 samples.

Results

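Nefm, Nefl and Nefh encode the medium, light and heavy neurofilament proteins, and their CpG methylation was measured in mouse embryonic stem (ES) cells that carried WT or mutant DNMT1. For each gene the region examined was the gene in the GENCODE M21 annotation with 5 kb on either side. Within it, CpGs with at least 1 read in all 18 libraries were used, and the level of a 1 kb tile was the summed methylated reads over all reads of those CpGs in a library, given in percent. The genes were chosen by measured levels: 1 Nefm tile was higher in W796A than in WT and another was nearly empty in W465A, so levels in those 2 groups against WT are given as a description, with no test. Of 1539924 such tiles in the genome, 60 lay in the 3 windows, and 30 of these had at least 3 used CpGs and at least 10 reads in every library and were tested.

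The data came from enhanced reduced representation bisulfite sequencing (eRRBS), in which DNA is cut with restriction enzymes (MspI, BfaI and MseI), treated with bisulfite so that unmethylated cytosine reads as thymine, and sequenced. All cells were mouse ES cells with a knockout of Dnmt1, the enzyme that copies CpG methylation onto the new strand after DNA replication. They were transfected with a pPyCAGIP vector carrying DNMT1 and selected with puromycin. The 6 groups of 3 biological replicates carried WT DNMT1 or DNMT1 with tryptophan replaced by alanine: W796A, W465A, W464A/W465A, W465A/W796A or W464A/W465A/W796A (the triple mutant). The study asked how these residues bear on maintenance methylation in cells. Several stable lines were made per group, and the labels do not state that a group's 3 replicates are different lines, so the p-values measure the spread between these libraries. No expression was measured, so the ES cell identity was not checked against marker genes, and methylation says nothing here about whether a neurofilament gene was transcribed.

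Neurofilaments are the intermediate filaments of neurons. They assemble from the light subunit together with the medium and heavy subunits, whose long tails project sideways from the filament, and they fill and widen large axons. In undifferentiated ES cells these genes are not part of the usual expression programme. As for many genes with a CpG island, the CpG-dense 5′ end of such a gene is often kept unmethylated while its body and its surroundings are methylated.

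The library totals at CpGs lay between 59776439 reads (WT replicate 3) and 138978763 reads (WT replicate 2). The mean level over all 6143659 CpGs with a read in every library ran from 51.1% to 72.5% in the WT and W796A libraries, from 42.0% to 48.7% in W465A/W796A, and from 16.8% to 32.8% in the other 3 groups. The lowest libraries of WT and of W796A were replicate 1 of each, at 54.3% and 51.1%. Chromosome 11, which carries Nefh, took between 9.01% and 9.58% of the reads in 5 libraries (WT replicates 1 and 2, W465A/W796A replicates 1 and 3, and W464A/W465A/W796A replicate 3) and between 6.47% and 7.59% in the others. The 5 libraries were left out only in fits of gene windows, not of tiles. That kept 1 WT and 1 W465A/W796A library, too few to decide what part chromosome 11 had in the Nefh results. Reads are PCR products without molecular identifiers, so levels of 0 and their limits cover counting error only.

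Nefm lies on chromosome 14 on the minus strand. Its short transcript Nefm-201 runs from 68119283 to 68124846 (GRCm38) in 3 exons. GENCODE also gives it a long transcript, Nefm-202, which starts at the same place, reaches down to 68082590 and there overlaps Nefl, which lies on the plus strand from 68083863 to 68089095. The Nefm window of 43 tiles therefore contains all 14 tiles of the Nefl window. Nefh lies on chromosome 11 on the minus strand, from 4938754 to 4948064, and its window has 17 tiles. The windows held 292, 95 and 173 used CpGs for Nefm, Nefl and Nefh, and 19, 7 and 11 of their tiles were tested.

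Stretches of 200 bp from GRCm38 that hold the most used CpGs of their exon or tile are shown here. The mean level of one differed between groups, and the other, with more CpGs, was unmethylated in every group. They are written 5′ to 3′ in the direction of Nefm or Nefh transcription, which is the minus strand, with CpGs in capitals. The first lies in intron 2 of the long transcript Nefm-202 at chr14:68117001-68117200 and has 12 CpGs. Its label, Nefm long intron, means this intron of the long transcript and not the longer intron 3. The second lies in Nefh exon 1 at chr11:4947427-4947626 and has 34 CpGs.
Nefm long intron: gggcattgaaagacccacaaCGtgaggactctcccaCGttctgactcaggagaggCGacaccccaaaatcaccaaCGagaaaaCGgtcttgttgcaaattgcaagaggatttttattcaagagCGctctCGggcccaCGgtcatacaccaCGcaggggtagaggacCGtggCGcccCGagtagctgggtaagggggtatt
Nefh exon 1: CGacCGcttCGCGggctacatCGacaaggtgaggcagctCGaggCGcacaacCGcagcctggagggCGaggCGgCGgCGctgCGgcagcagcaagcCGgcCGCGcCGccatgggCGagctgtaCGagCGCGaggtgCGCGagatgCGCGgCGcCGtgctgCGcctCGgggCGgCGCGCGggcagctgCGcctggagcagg
Over its used CpGs the Nefm stretch, with 24 to 180 reads per library, was at 78.1% ± 14.9 in WT and 67.6% ± 42.5 in W796A (SD, n = 3). It was at 39.0% ± 17.0 in W465A/W796A and at most 5.0% in the mean of the other groups, so the W796A libraries were far apart. Its tile was picked by its W465A share of WT, and 12 of the tile's 15 used CpGs lie in repeats. The Nefh exon 1 stretch was at 0.21% ± 0.20 in WT and at most 0.37% in the mean of any group (n = 3). The first was thus methylated in WT and partly so in W465A/W796A, while the second was near 0 throughout.

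The 5′ end of Nefm was partly methylated with WT DNMT1, was higher in all W796A libraries and was nearly unmethylated in every library with W465A. The tile chr14:68124001-68125000 holds the transcription start and most of exon 1, with 74 of its 97 CpGs used and 928 to 2718 reads per library. The WT libraries were at 20.3%, 26.9% and 44.6%. The W796A libraries were at 56.8%, 81.9% and 78.6%. Every W796A library lay above every WT library, by 41.8 points between the means (30.6% ± 12.6 and 72.4% ± 13.6, SD, n = 3).

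In the groups with W465A the same tile was close to 0. The W465A libraries were at 1.12%, 1.59% and 0.21%, and the W464A/W465A libraries at 0.47%, 0.24% and 0.93%. The W465A/W796A libraries were at 0.99%, 1.80% and 2.14%, and the W464A/W465A/W796A libraries at 0.22%, 1.16% and 0.50%. All 12 of these libraries lay below all 6 libraries of WT and W796A. The W465A/W796A mean was 5.38% of the WT mean at this tile. Among the groups with W465A the tile did not differ beyond the spread between libraries: W465A/W796A against W465A differed by 0.72 points (adjusted p 0.581, quasi-binomial model over all tiles), and W464A/W465A/W796A against W465A/W796A by -1.05 points (adjusted p 0.343).

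The next tile upstream, chr14:68125001-68126000, showed the same order of groups on 8 of its 30 CpGs and 52 to 156 reads. It was looked up after its values were seen, as the tile with the next largest rise in W796A over WT. It was thus picked partly by its WT values. Its WT libraries were at 29.9%, 30.1% and 36.5%, and the W796A libraries at 43.2%, 76.5% and 72.8%. The W465A/W796A libraries were at 0%, 0% and 2.90%, and the 3 W464A/W465A/W796A libraries at 0% each, which at 67 or more reads allows up to 4.48% in a library. W465A/W796A was lower than WT by -30.5 points (adjusted p 0.00557, with a range from 0.00233 to 0.115 over 13 alternatives, the highest without WT replicate 2 at -31.7 points). The rises in W796A were 41.8 points in the tile with the start and 32.0 points in this one, and the next largest of the 19 tested Nefm tiles was 11.1 points.

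**Figure D1:**
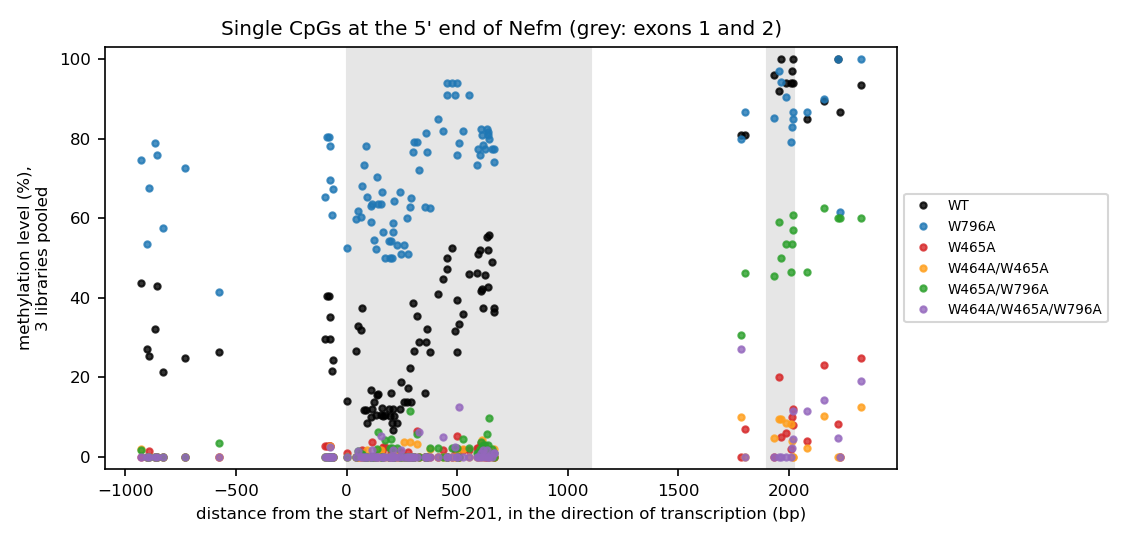
Each point is 1 used CpG of Nefm, with its position in bp from the start of Nefm-201 on the x axis and its methylation level in percent, over the pooled reads of the 3 libraries of a group, on the y axis. Grey bands mark exons 1 and 2: in exon 1 the W796A points lie above the WT points and those of the 4 groups with W465A lie near 0, while in exon 2 the W465A/W796A points lie midway, with a mean of 51.8%.

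Levels of single CpGs near the start are given as a description, since nearly all lie in the tile by which the gene was chosen. They are pooled over the 3 libraries of a group, which hides the spread between libraries. From position -576 to position 668 relative to the start, 75 CpGs were used, and the pooled W796A level was above the pooled WT level at 75 of them. WT CpGs ranged from 6.90% to 55.8% with a median of 26.7%, and W796A CpGs from 41.4% to 93.9% with a median of 69.6%. In W465A/W796A 42 of the 75 were at 0 and the highest was at 11.6%. In W465A 45 were at 0, in W464A/W465A 59 and in W464A/W465A/W796A 60. Neighbouring CpGs share reads and are not separate measurements, and the lowest depth of a CpG in a library was 2 reads.

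Of the stretches of exon 1 compared here, the first 300 bp had the lowest WT mean (19.4%). The level did not fall evenly towards the start: the CpG at position 69 was at 37.5% in pooled WT reads and that at position 79 at 11.9%. Over the 34 CpGs in the first 300 bp the WT libraries were at 8.09%, 12.7% and 37.5%, against 45.0%, 68.3% and 74.4% in W796A. Over the 15 CpGs of the next 200 bp the WT mean was 33.5% ± 17.6 and the W796A mean 78.8% ± 10.5 (SD, n = 3). Over the 18 CpGs of the 200 bp after that these means were 45.7% ± 16.4 and 82.8% ± 14.8 (SD, n = 3). In the first 300 bp WT replicate 3 stood far above the other two, so the WT level there depends on the library. Over the 7 CpGs of the 100 bp before the start the order was reversed, with WT libraries at 42.9%, 31.9% and 14.3%. The W465A/W796A means over the stretches of exon 1 were 1.03%, 1.07% and 2.66%. The ends of these stretches were set after the values were seen.

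**Figure D2:**
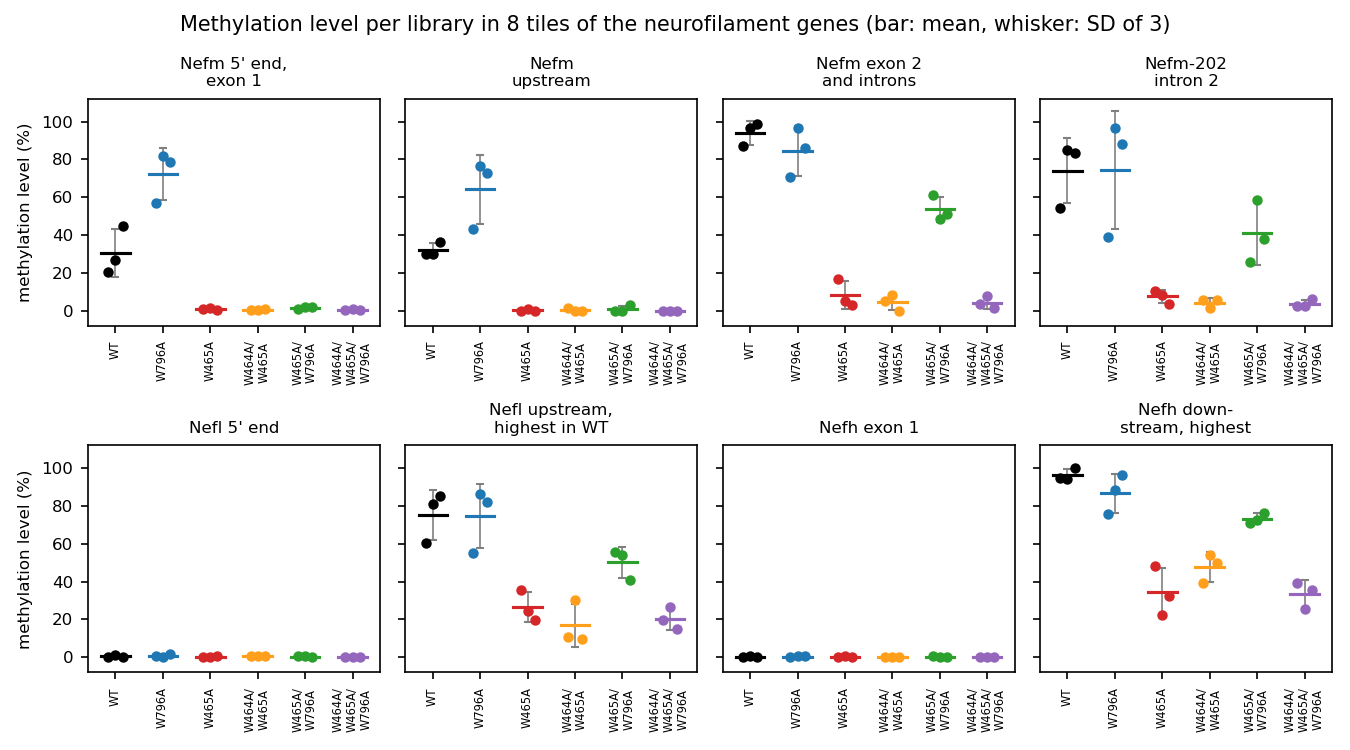
Each panel is 1 tile, with the 6 groups on the x axis and the methylation level in percent on the y axis; points are libraries, horizontal bars group means and whiskers SD (n = 3). The W465A/W796A libraries lie between 48.7% and 61.2% at Nefm exon 2 and at most at 2.14% at the Nefm 5′ end.

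Exon 2 of Nefm, which codes for part of the filament-forming rod, behaved otherwise. Its tile, chr14:68122001-68123000, holds exon 2 and parts of introns 1 and 2, with 13 of 15 CpGs used and 71 to 223 reads. In WT the libraries were at 86.9%, 96.9% and 98.6%, the highest WT mean of the 19 tested Nefm tiles (94.1% ± 6.30, SD, n = 3). The W796A libraries were at 70.7%, 96.9% and 85.8% and overlapped with WT. The W465A libraries were at 17.0%, 5.19% and 2.90%, which is the near loss for which the gene was chosen.

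The W465A mean of this tile was 8.89% of the WT mean, the lowest share of the 14 tested Nefm tiles with a WT mean of at least 50%, with the next at 10.2% and 22.9%. The W464A/W465A libraries were at 5.17%, 8.38% and 0%, and the W464A/W465A/W796A libraries at 3.59%, 7.83% and 1.53%. The W465A/W796A libraries were at 61.2%, 48.7% and 51.3%, above all 9 libraries of the other groups with W465A and below all 6 of WT and W796A. W464A/W465A/W796A was lower than W465A/W796A by -50.0 points (adjusted p 0.00034). It differed from W464A/W465A by -0.46 points (adjusted p 1). The W465A/W796A mean was 57.1% of WT here, against 5.38% in the tile with the start and most of exon 1. Intron 1, which separates exons 1 and 2, is 794 bp long.

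The tile with the next lowest W465A share, chr14:68117001-68118000, lies past the end of Nefm-201 in intron 2 of Nefm-202, and it too was looked up after its values were seen. Of its 15 used CpGs 12 lie in sequence that the reference marks as repeats, so reads there may come from other copies. Its WT libraries were at 54.2%, 84.9% and 83.3%, and the W796A libraries at 38.9%, 96.8% and 88.0%. The W465A libraries were at 10.5%, 8.33% and 3.81%, and the W465A/W796A libraries at 26.0%, 58.8% and 38.1%. W465A/W796A was higher than W465A by 34.9 points (adjusted p 0.0209), and W464A/W465A/W796A was lower than W465A/W796A by -38.0 points (adjusted p 0.00369). W465A/W796A was lower than WT by -33.5 points (adjusted p 0.0428). The call against W465A was lost in 6 of 12 alternatives (adjusted p from 0.00311 to 0.139, the highest without W465A replicate 3). That against WT was lost in 8 of 12 (adjusted p from 0.0133 to 0.26, the highest without WT replicate 2). The tile was picked by its W465A and WT levels, so both of these p-values lean on the choice and are given as a description. The comparison of W464A/W465A/W796A with W465A/W796A uses neither of those groups.

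The introns and exon 3 of Nefm were also methylated in WT where covered. In intron 1 only 2 of 42 CpGs were used, at positions 1783 and 1801, with 4 to 30 reads per library and a WT mean of 81.5%. No CpG between positions 668 and 1783 was used, so the level there is unknown. Intron 2 of Nefm-201, with 14 used CpGs, had means of 81.6% in WT, 83.5% in W796A, 27.9% in W465A, 15.4% with W464A/W465A, 58.5% with W465A/W796A and 14.3% in the triple mutant. Exon 3, which codes for the tail, had only 5 of 36 CpGs used, with means of 89.0%, 83.3%, 35.3%, 34.2%, 60.7% and 38.3% in the same order. The long intron 3 of Nefm-202, with 72 used CpGs over about 31 kb, had means of 72.6%, 79.1%, 29.0%, 20.7%, 50.5% and 19.2%. Exon 4 of Nefm-202, which overlaps the start and exon 1 of Nefl, was unmethylated, with 44 used CpGs and a WT mean of 0.38%. The order of groups in intron 3 was the one seen over the whole genome, with W465A/W796A between WT and the other groups with W465A.

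**Figure D3:**
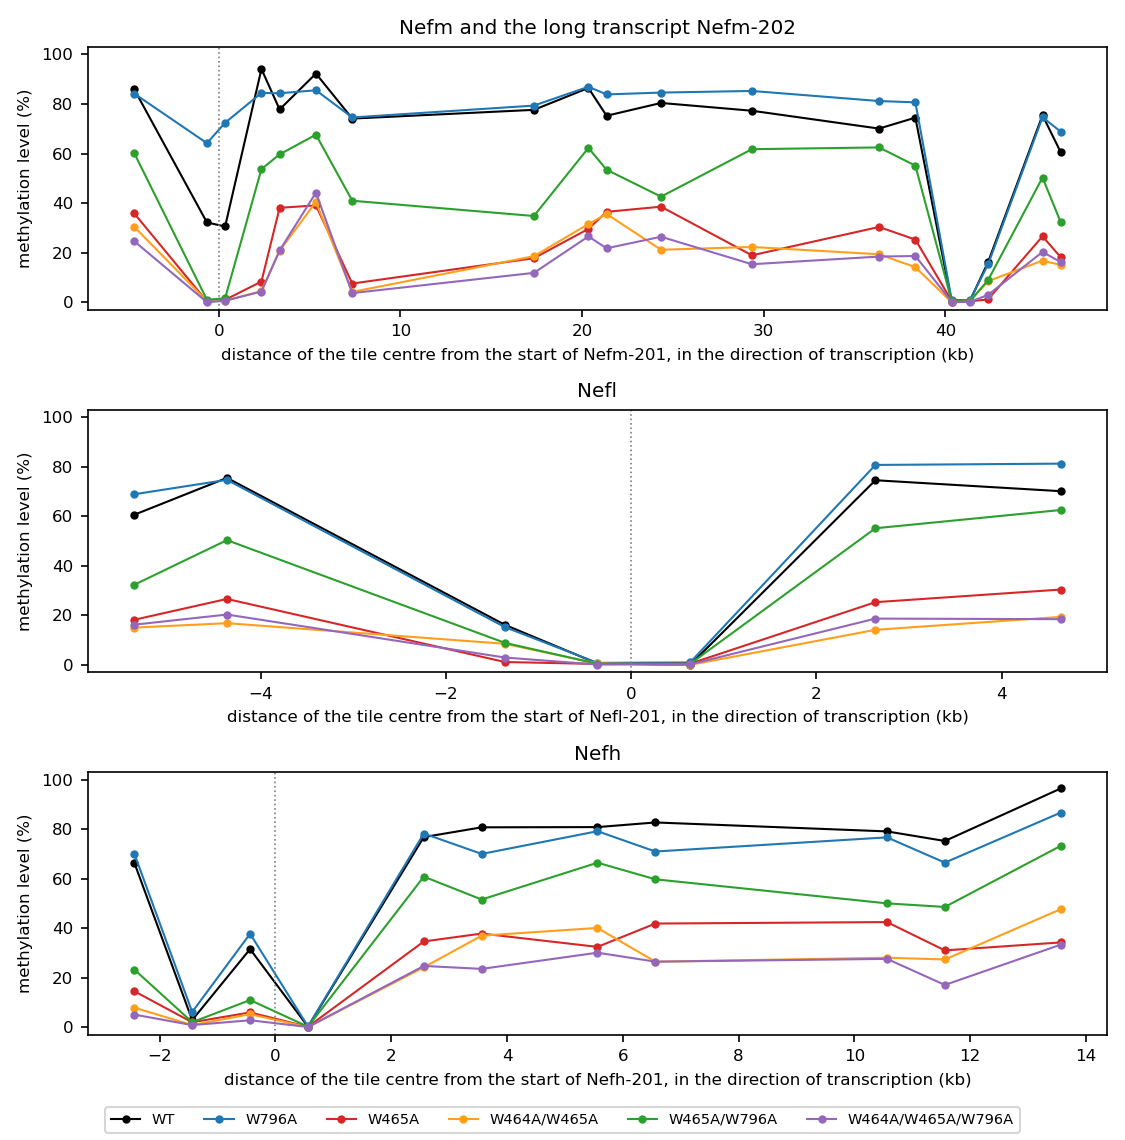
Mean methylation level of the 3 libraries of each group in percent (y axis) over the tested 1 kb tiles of each window, against the distance of the tile centre from the gene's start in kb (x axis). Near the start Nefm has WT levels around 30% with W796A above them, while the tiles next to the Nefl start and in Nefh exon 1 are near 0 in every group; the right-hand dip in the Nefm panel is the Nefl 5′ end.

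Nefl encodes the light subunit, on which the other subunits assemble. Its CpG-dense 5′ end was unmethylated in every group. The tile chr14:68083001-68084000, which holds the start, had 30 of 49 CpGs used and 315 to 808 reads. The WT libraries were at 0%, 1.24% and 0.39%, the W796A libraries at 0.48%, 0.22% and 1.69%, and no library of any group was above 1.69%. In exon 1 (chr14:68084001-68085000, 15 of 97 CpGs used) all 3 WT libraries were at 0%, which at 232 or more reads allows up to 1.29% in a library, and no library was above 1.34%. None of the 6 tested contrasts passed in either tile, where the farthest from 0 was -0.57 points.

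Intron 1 of Nefl was at 0% in every library, but over only 4 of its 15 CpGs and 6 to 40 reads per library. Its tile was not tested, and so few reads leave wide limits on the level. The flanks of Nefl and its body from exon 2 on were methylated where covered. Its highest tested tile in WT, chr14:68079001-68080000, lies upstream of the start, with 15 of 17 CpGs used and 80 to 279 reads. The WT libraries were at 60.3%, 81.0% and 85.0%, and the W796A libraries at 55.4%, 86.3% and 82.3%. The W465A libraries were at 35.5%, 24.4% and 19.9%, and the W465A/W796A libraries at 55.9%, 54.2% and 40.9%. The W464A/W465A libraries were at 10.9%, 30.2% and 9.41%, and the W464A/W465A/W796A libraries at 19.7%, 26.3% and 14.9%. All 3 W465A/W796A libraries lay above all W465A libraries (by 24.0 points, adjusted p 0.0464) and below all WT libraries (by -26.1 points, adjusted p 0.0254). Each call was lost in 7 of 12 alternatives, with adjusted p from 0.0119 to 0.198 for the first and from 0.00727 to 0.239 for the second, the highest without W465A replicate 3 and WT replicate 2. The tile was picked for its high WT level, which favours a lower value in another group. Its difference from WT is therefore given as a description. W464A/W465A/W796A was lower than W465A/W796A by -30.5 points (adjusted p 0.00324).

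Nefh encodes the heavy subunit, whose tail carries many phosphorylated repeats. Its first exon was unmethylated in every library, as at Nefl and unlike Nefm. The tile chr11:4947001-4948000 had 82 of 144 CpGs used and 1873 to 8860 reads. Its WT libraries were at 0.09%, 0.42% and 0.32%, and the highest of all 18 libraries was at 0.52%. None of the 6 tested contrasts passed there, where the farthest from 0 was -0.20 points.

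The tile with the Nefh start, chr11:4948001-4949000, begins inside exon 1 and is mostly upstream sequence, with 19 of 37 CpGs used and 138 to 547 reads. In WT its libraries were at 25.5%, 32.4% and 37.0%, and the W796A libraries at 20.3%, 51.1% and 42.1%, which overlapped with WT. The W465A libraries were at 7.26%, 7.19% and 3.73%, and the W465A/W796A libraries at 16.5%, 13.0% and 3.67%. The W464A/W465A libraries lay between 4.83% and 5.67% and the W464A/W465A/W796A libraries between 2.01% and 4.0%. W465A/W796A was lower than WT by -19.3 points (adjusted p 0.0132), a call lost in 3 of 13 alternatives (adjusted p from 0.00587 to 0.143). It did not differ from W465A beyond the spread (6.06 points, adjusted p 0.182).

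The level of this Nefh tile came from CpGs far from the start. Its 7 used CpGs nearest the start were at 0% to 2.44% in WT, and the other 12 at 13.7% to 67.5%. The Nefm tile, in contrast, was methylated in exon 1 and close to the start, so the tiles are alike in mean level and not in position. The WT means were 31.6% ± 5.75 at the Nefh tile and 30.6% ± 12.6 at the Nefm tile, and the W796A means 37.8% ± 15.8 and 72.4% ± 13.6 (SD, n = 3). In W465A/W796A the Nefh tile kept 35.0% of its WT mean and the Nefm tile 5.38%. These differences between the genes were not tested. The highest Nefh tile in WT, chr11:4934001-4935000 downstream of the gene, had 5 used CpGs, 4 of them in repeats, and 17 to 82 reads. Its WT libraries were at 95.0%, 94.3% and 100%, and its W465A/W796A libraries at 70.8%, 72.7% and 76.3%, above all W465A libraries (48.2%, 22.2% and 32.5%; 34.2 points, adjusted p 0.0176). This call was lost in 3 of 12 alternatives (adjusted p from 0.0114 to 0.0922), those without W465A replicate 2 or 3 or W465A/W796A replicate 1.

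Sorting the used CpGs by the number of CpGs within 250 bp on either side, itself included, gave 3 classes. All 74 Nefm CpGs of the densest class are those of the tile with the start, by which the gene was chosen, so its values there are the ones already given. Where over 20 CpGs lay that near, Nefm (74 CpGs) was at 30.6% in WT and 72.4% in W796A and at most at 1.64% in the means of the other groups. Nefl (43 CpGs) was at most at 0.86% and Nefh (106 CpGs) at most at 1.02% in the mean of any group. Where 1 to 10 CpGs lay that near, the WT means were 83.6%, 70.8% and 78.3% for Nefm, Nefl and Nefh. The W465A/W796A means in that class were 55.7%, 52.4% and 55.7%. In that sparse class the 3 genes thus had like levels, and W465A was lower, at 32.3%, 29.6% and 35.2%. Between them, where 11 to 20 CpGs lay that near, the W465A/W796A means were 34.6%, 32.4% and 17.3%.

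**Figure D4:**
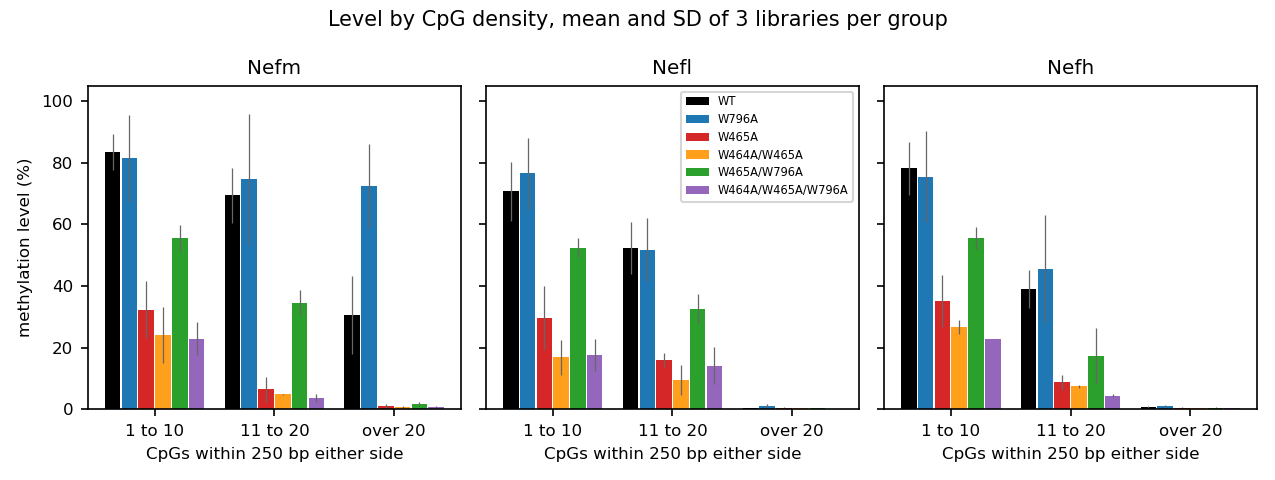
Bars give the mean methylation level in percent with SD over 3 libraries (y axis, from 0), by the number of CpGs within 250 bp on either side (x axis), for each group and gene; Nefm is taken by its short transcript. The Nefm bars in the class of over 20 CpGs, 30.6% in WT and 72.4% in W796A, are the tile by which the gene was chosen; in the class of 1 to 10 CpGs the W465A/W796A bars lie between 52.4% and 55.7% for all 3 genes.

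Over the promoter, 500 bp either side of the start, the 3 genes took different places among 13003 protein-coding promoters with at least 10 used CpGs, whose median WT level was 0.70%. The Nefm promoter (56 CpGs) was at 23.4% ± 13.2 in WT, with 955 promoters (7.34%) at or above it. The Nefl promoter (41 CpGs) was at 0.24% and the Nefh promoter (60 CpGs) at 0.58%. In W465A/W796A the Nefm promoter was at 0.96%, which is 4.10% of WT, while the median share over the 955 promoters was 69.0%. The only other promoter among the 955 with a level as low in W465A/W796A was that of the imprinted gene Nnat, at 23.9% in WT and 0.60% in W465A/W796A. In W796A the Nefm promoter stood 42.8 points above WT, which 1 other promoter reached, that of Wdr63 with 11 CpGs, at 18.1% in WT and 69.8% in W796A. These ranks were drawn up after the Nefm values were seen and use the contrast by which the gene was chosen, so they are descriptions.

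Over tested tiles, loss was the rule in the groups with W464A and W465A both replaced. Of 28 neurofilament tiles, leaving out the 2 Nefm tiles by which the gene was chosen, 23 were lower in W464A/W465A than in WT at an adjusted p under 0.05 and 10 or more points, and none was higher. Over all tested tiles of the genome 94.5% were called lower, and the median difference was -51.3 points over the neurofilament tiles and -51.8 over all tiles. In W464A/W465A/W796A 24 of 28 were lower and none higher, where 94.8% of all tiles were called lower. The tiles that were not called in W464A/W465A included those at the Nefl start and in Nefh exon 1, which were near 0 in WT. By gene, 4 of 7 Nefl tiles, 9 of 11 Nefh tiles and all 10 Nefm tiles outside the Nefl window were lower in W464A/W465A.

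In W465A/W796A fewer tiles differed from WT. Of the 28 tiles 13 were lower and none higher, where 33.1% of all tiles were called lower and 0.000344% higher, and the median difference was -21.8 points, against -20.8 over all tiles. The 13 were 8 of 11 Nefh tiles, 2 of 7 Nefl tiles and 3 of 10 Nefm tiles outside the Nefl window. Without WT replicate 2 none of the 28 passed, and without W465A/W796A replicate 3 only 3 did. With limma 6 passed.

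Set against W465A, W465A/W796A was higher. Of 29 tiles, leaving out the Nefm tile chosen for its loss in W465A, 8 were higher and none lower, where 24.6% of all tiles were called higher and 0.000861% lower. The median difference was 16.2 points over the neurofilament tiles and 20.95 over all tiles. The 8 were 3 tiles of Nefm outside the Nefl window, 2 of Nefl and 3 of Nefh. None of these calls survived the omission of W465A replicate 2, of W465A replicate 3 or of W465A/W796A replicate 1, and with limma 2 passed.

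With W464A added to W465A/W796A most tiles were lower, and with W796A added to W464A/W465A no tile passed the test. Against W465A/W796A, 20 of 30 tiles were lower in W464A/W465A/W796A and none higher, where 75.4% of all tiles were called lower and 0.000344% higher, with a median of -28.0 points against -30.9 over all tiles. All 30 differences were negative. Without W465A/W796A replicate 1 the count was 11. Against W464A/W465A, 0 of 30 tiles passed with the quasi-binomial model or with limma, 0 had an unadjusted p under 0.05 with the model, and the median was -0.92 points against -0.64 over all tiles, of which 0% were called. In each contrast the count of called neurofilament tiles is to be read against the genome-wide share given beside it, and the medians lay within 5 points of those over all tiles. The comparisons with WT share the WT libraries, and those with W465A/W796A share its libraries.

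W796A and W465A against WT are given for completeness as the contrasts of the choice. In W796A 3 of 30 tiles had all 3 libraries above all WT libraries, where 1.87% of all tiles did, and none had all below, where 0.992% did. The third of these, in Nefl exon 1, was at most at 1.34%. In W465A 26 of 30 tiles had all 3 libraries below all WT libraries, where 86.8% of all tiles did, and none had all above, where 0.0306% did. The 22 tested tiles with a WT mean of at least 50% had W796A means between 85.8% and 116% of WT (median 101%). Their W465A means were between 8.89% and 53.8% of WT (median 40.8%), and their W465A/W796A means between 35.1% and 89.2% (median 70.5%). The 30 tiles that were not tested, with 1 to 135 reads per library, had median group means of 81.5% in WT, 81.6% in W796A, 33.3% in W465A, 19.2% with W464A/W465A, 49.5% with W465A/W796A and 17.5% in the triple mutant.

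Summed over the whole window, Nefm had the highest WT level of the 3 genes. The Nefm window was at 37.6% ± 6.45 in WT, 55.9% ± 10.3 in W796A, 7.76% ± 1.34 in W465A, 6.30% ± 2.66 with W464A/W465A, 16.5% ± 0.93 with W465A/W796A and 6.02% ± 1.81 in the triple mutant (SD, n = 3). The last 2 groups differed by -10.5 points (adjusted p 0.00281). Neither of the Nefm tiles by which the gene was chosen was tested against WT, so the window was also fitted without them. The other 205 CpGs include all 95 used CpGs of the Nefl window. On the 205 CpGs the level was 39.8% ± 6.51 in WT, 42.3% ± 9.19 in W796A, 13.7% ± 3.30 in W465A and 26.0% ± 2.27 in W465A/W796A (SD, n = 3). Without the 2 tiles, then, the WT and W796A levels overlapped. W465A/W796A was lower than WT by -15.6 points (adjusted p 0.0172) and higher than W465A by 11.9 points (adjusted p 0.0149).

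The Nefl window was at 19.7% ± 4.99 in WT, 19.0% ± 4.10 in W796A, 7.05% ± 0.97 in W465A, 4.87% ± 2.69 with W464A/W465A, 14.9% ± 2.09 with W465A/W796A and 5.81% ± 2.33 in the triple mutant (SD, n = 3). W464A/W465A was lower than WT by -16.0 points (adjusted p 6.1e-05), where 99.7% of 21060 gene windows were called lower at an adjusted p under 0.05. W465A/W796A differed from WT by -6.46 points and did not pass (adjusted p 0.0802), where 71.1% of windows were called lower. It was above W465A by 7.59 points (adjusted p 0.0218), where 79.9% of windows were called higher, and the call was lost in 6 of 14 alternatives (adjusted p from 0.00963 to 0.848). W464A/W465A/W796A was below W465A/W796A by -8.91 points (adjusted p 0.00412), where 94.6% of windows were called lower, and differed from W464A/W465A by 0.60 points (adjusted p 1), where 0% were called.

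The Nefh window was the lowest of the 3, since 106 of its 173 used CpGs lie in the dense class near 0. It was at 10.9% ± 1.98 in WT, 9.60% ± 2.64 in W796A, 4.38% ± 1.42 in W465A, 3.50% ± 0.72 with W464A/W465A, 7.58% ± 0.76 with W465A/W796A and 3.42% ± 0.49 in the triple mutant (SD, n = 3). W464A/W465A was lower than WT by -7.37 points (adjusted p 5.1e-05) and W465A/W796A by -3.16 points (adjusted p 0.044). The second of these was lost in 10 of 14 alternatives (adjusted p from 0.0208 to 0.874), among them the omission of any 1 library of W465A/W796A and of WT replicate 2 or 3. W465A/W796A was above W465A by 3.50 points (adjusted p 0.0165), a call lost in 4 of 14 alternatives (adjusted p from 0.00932 to 0.656), and W464A/W465A/W796A below W465A/W796A by -4.32 points (adjusted p 0.00237). In W465A/W796A the Nefl and Nefh windows kept 75.6% and 69.8% of the WT mean. The Nefm window kept 44.0% with the 2 tiles of the choice and 65.5% without them. As it holds the whole Nefl window, its share is not separate from that of Nefl.

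Related genes were looked up to set the members beside their family. Over 13 other intermediate filament genes all windows were lower in W464A/W465A than in WT, 8 were lower in W465A/W796A and 10 were higher in W465A/W796A than in W465A, with no call in the opposite direction. Over all windows the shares were 99.7%, 71.1% and 79.9%, so these counts lie near the background. The median W465A/W796A difference from WT was -8.36 points over these windows and -14.1 over all windows. Ina, which encodes the neuronal filament protein internexin that assembles with the neurofilament subunits, had a promoter at 0.23% in WT and a window at 25.04%. Prph, which encodes the peripheral-neuron filament protein peripherin, had a partly methylated promoter, at 8.61% in WT, 14.6% in W796A, 2.37% in W465A and 3.12% in W465A/W796A. Other filament genes with partly methylated promoters were Des, the muscle filament gene, at 11.1% in WT and 8.07% in W465A/W796A, and Gfap, the astrocyte filament gene, at 40.3% and 18.3%. Nes, the filament gene of neural progenitors, had a promoter at 0.69% in WT and 1.49% in W796A, and Vim, which encodes vimentin, 0.29% and 0.70%. The window with the highest WT level was that of Bfsp2, a lens filament gene, at 78.7%, and the lowest that of Nes at 11.8%.

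Over 10 genes of the axonal cytoskeleton all windows were lower in W464A/W465A than in WT and 8 were lower in W465A/W796A. All 10 were higher in W465A/W796A than in W465A. These counts too stand against 99.7%, 71.1% and 79.9% of all windows. The median W465A/W796A difference from WT was -14.9 points, against -14.1 over all windows. Their WT promoter levels were at most 2.28% except for Gap43, a growth cone gene, at 6.72% over only 2 CpGs. The window of Mapt, which encodes the microtubule protein tau, was at 49.2% in WT and 35.4% in W465A/W796A. Both lists were chosen with earlier results of these data known, and their promoters were not tested.

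Gene windows whose levels over the 18 libraries were closest to each member were found by root mean square difference among 19047 genes with at least 20 used CpGs. Closest to Nefm was Ankrd34c at 3.37 points (Pearson's r 0.986 over 18 libraries), followed by Pcdha1 at 4.02 and Duoxa2 at 4.10 points. Closest to Nefl were Cdk2 at 1.46, Coq5 at 1.64 and Crb3 at 1.71 points. Closest to Nefh were Ywhah at 0.59, Vegfb at 0.78 and Bambi at 0.87 points. All genes share the libraries and their global levels, so the median r over all genes was already 0.899 with Nefm, 0.939 with Nefl and 0.963 with Nefh.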

How the data were processed

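Methylation was measured by eRRBS in 18 libraries, 6 groups of 3. Per the submitters' processing notes, reads were handled with cutadapt 1.2.1, Bismark 0.18.1 and Bowtie 1.2 on mm10 (GRCm38). The deposited table gives, per CpG and library, 2 read counts, the authors' methylated count and total count, and holds 21867550 CpGs; how the authors joined strands or filtered CpGs is not given in the sources used here. The members and lists were chosen with earlier results of these data known.

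Of the CpGs, 28.1% had a read in every library and were used. Counts were summed per library over 1 kb tiles (tested with at least 3 CpGs and 10 reads in every library; median 6 CpGs and 49 reads) and over protein-coding genes of GENCODE M21 with 5 kb either side. A tile was counted with a window that it overlapped. Each feature was fitted with a quasi-binomial logistic model of the 6 groups over all 18 libraries in Python 3.11.15 (numpy 2.4.6, scipy 1.17.1). Its overdispersion was moderated towards a common value by the method of limma's squeezeVar, and contrasts were tested by 2-sided F tests of the deviance with Benjamini-Hochberg adjustment over 580762 tiles or 21060 windows. Calls of tiles needed a pooled difference of 10 points or more beside an adjusted p below 0.05, and calls of windows the p alone; for windows a limit of 10 points had been set at first and was dropped after the results were seen. Differences that stand with a p are of pooled reads, and levels are means over libraries. No test of the 2 Nefm tiles of the choice against WT was read.

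The tested contrasts were those of W464A/W465A, of W465A/W796A and of the triple mutant with WT, of the triple mutant with both double mutants and of W465A/W796A with W465A. Tiles are described in full where they hold a 5′ end, have the highest WT level of the tested tiles of their window, or lead the orders of W796A above WT and of W465A as a share of WT. The second tile of each order, the stretches of Nefm exon 1, the density classes, the promoter ranks, the classes of WT level and the printed sequences were chosen after the values were seen. Alternatives were a replicate block, no moderation, limma 3.58.1 (R 4.3.3) on log2 ratios with 0.5 added to each count, other read and CpG minimums, 500 bp tiles, the gene without flanks, and each library left out. Those without the libraries rich in chromosome 11 reads, with Nefm by its short transcript and without its 2 tiles of the choice were added after seeing the data. The model was tested on simulated counts. Sequences came from the RefSeq genome of GRCm38. Some sequences and 1 gene of a list are not reported here.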

Additional observations from a re-analysis of the deposited data

How the results depend on the processing

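Replicate numbers did not pair the libraries: the correlation of deviations between same-numbered libraries ran from -0.08 to 0.06 over the 6 contrasts. With a replicate block the tile counts were 23, 10, 24, 0, 19 and 8 (W464A/W465A, then W465A/W796A, then the triple mutant against WT, the triple mutant against W464A/W465A and W465A/W796A, and W465A/W796A against W465A). The Nefh window in W465A/W796A against WT (-3.16 points) missed the threshold with the block (adjusted p 0.092).

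Under stricter read minimums few tiles remained. With at least 5 reads per CpG and library the counts of tiles were 5 of 10 tested, 5 of 10 and 6 of 10 against WT, 3 of 12 for the triple mutant against W465A/W796A and 0 of 11 for W465A/W796A against W465A. With at least 10 reads they were 0 of 4, 0 of 4, 0 of 4, 0 of 5 and 0 of 5. The tiles kept then included those at the Nefl start, in Nefl exon 1 and in Nefh exon 1. Their WT means in the main fit were 0.54%, 0% and 0.28%. A fall of 10 points from WT could not occur there, so the lack of calls in them says nothing about depth. With every tile of at least 1 CpG they were 49 of 58 for W464A/W465A and 51 of 58 for the triple mutant against WT, and 4 for W465A/W796A against W465A. With 500 bp tiles they were 8 of 24 for W465A/W796A against WT, 13 of 27 for the triple mutant against W465A/W796A and 3 for W465A/W796A against W465A. With limma they were 6 for W465A/W796A against WT and 2 for W465A/W796A against W465A, and without moderation the latter was 3; the cause was not tested.

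Leaving out 1 library gave 23 to 23 tiles for W464A/W465A against WT, 23 to 24 for the triple mutant against WT and 11 to 21 for it against W465A/W796A (11 without W465A/W796A replicate 1). For W465A/W796A against WT the range was 0 to 16, with 0 without WT replicate 2, 7 without WT replicate 3 or W465A/W796A replicate 2, and 3 without W465A/W796A replicate 3. For W465A/W796A against W465A it was 0 to 8, with 0 without W465A replicate 2 or 3 or W465A/W796A replicate 1, 4 without W465A/W796A replicate 2 and 5 without W465A/W796A replicate 3.

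For gene windows in W465A/W796A against WT, the Nefh difference was -3.16 points with limma (adjusted p 0.141), -1.45 over the gene alone (0.133), -5.29 without the libraries with over 8% of reads on chromosome 11 (0.269), -0.0387 with at least 10 reads (0.874), and between -3.81 and -2.60 without 1 library; it was lost without WT replicate 2 or 3 or any W465A/W796A library. The Nefm difference was -26.5 without the chromosome 11 libraries (0.249) and between -23.7 and -19.8 without 1 library, lost without WT replicate 2 or W465A/W796A replicate 2 or 3. The Nefl difference lay between -7.92 and -2.27 and passed without WT replicate 1 (0.0446). Leaving out the chromosome 11 libraries kept 1 WT, 1 W465A/W796A and 2 triple mutant libraries, the lone libraries being assumed to vary like the other groups. The triple mutant then differed from W465A/W796A by -10.6 points at Nefm, -10.6 at Nefl and -4.07 at Nefh (adjusted p 0.0981, 0.0803 and 0.115). W465A/W796A differed from W465A by 9.15, 9.95 and 3.18 (0.235, 0.234 and 0.251). Taken by its short transcript, Nefm differed by 7.15 points in that contrast (0.0674).

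With at least 5 reads, Nefm differed by -2.71 points between the triple mutant and W465A/W796A and by 2.18 between W465A/W796A and W465A, and Nefl by 1.47 in the latter. With at least 10 reads, the Nefl difference changed sign for W464A/W465A against WT (0.0716) and for W465A/W796A against W465A (-0.0721). The CpGs kept at that minimum include those of the near-0 tiles at the Nefl start, in Nefl exon 1 and in Nefh exon 1. At that minimum the triple mutant differed from WT by -0.0439 at Nefl and -0.27 at Nefh, and W464A/W465A differed from WT by -0.32 at Nefh. The triple mutant then differed from W465A/W796A by -0.998 at Nefm, -0.14 at Nefl and -0.23 at Nefh, and W465A/W796A from W465A by 0.60 at Nefm and 0.10 at Nefh; the cause was not tested. Without 1 library W465A/W796A stood above W465A by 7.91 to 9.48 points at Nefm, 6.63 to 9.002 at Nefl and 2.42 to 4.25 at Nefh. This was lost at all 3 genes without W465A replicate 3 or W465A/W796A replicate 1, and at Nefl also without W465A replicate 2 or W465A/W796A replicate 2. Over single tiles, 651 values stayed on their side of the threshold, 39 lost it and 2 gained it. No called tile changed sign, while some differences near 0 that had not passed did.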
